A study of Mus musculus with 8 samples.

Results

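The E2f family of transcription factor genes was examined in whole 4T1.13 mammary tumours with and without suppression of miR-21. The members were chosen by gene symbol as the rows of the deposited count table for E2f1 to E2f8, which are 8 of 27179 genes. All 8 had enough counts to be among the 14382 genes tested. RNA sequencing was performed on 4 vector control tumours (VC) and 4 miR-21-KD tumours. 4T1.13 is a highly metastatic line of the BALB/c 4T1 mammary carcinoma series, and 100000 cells were placed in the mammary fat pad of female BALB/c mice. Both lines carried the miArrest lentiviral vector with an mCherry reporter and hygromycin resistance. The miR-21-KD line expressed a miR-21 inhibitor, which binds and sequesters the mature miRNA, from the H1 promoter, and the VC line a scrambled sequence. Each line was a pool of clones, so a difference between the groups cannot be told apart from a difference between these 2 pools. The labels give day 14 for recovery of the tumours in both groups, a time when the miR-21-KD tumours had begun to regress, whereas the methods of the study name an earlier day. Sequestration leaves the miR-21 gene intact and the table holds gene-level reads, so the knockdown could not be checked here.

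E2F proteins bind a shared DNA motif in the promoters of genes for DNA replication and cell division and set the timing of their transcription. The activators E2F1, E2F2 and E2F3 drive entry into S phase, whereas E2F4 and E2F5 act mostly as repressors with the pocket proteins RB, p107 and p130 in resting cells. E2F6 represses independently of the pocket proteins, as part of a polycomb complex, and the atypical members E2F7 and E2F8 repress E2F target genes late in S phase without a DP partner. In breast and other carcinomas, loss of RB control over these factors is a common route to unscheduled proliferation.

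Expression of 5 of the 8 members was lower in miR-21-KD than in VC tumours, and 0 were higher. By unadjusted p under 0.05 in edgeR, and by DESeq2 and limma-voom, 5 were lower and 0 higher as well. The atypical repressors E2f8 and E2f7 had the largest differences in the family, at 30.3% and 42.9% of their mean VC level. E2f6 and the activator E2f1 were at 59.7% and 60.4%, and E2f5 at 75.7%. E2f2, E2f3 and E2f4 did not pass the threshold. The number lower is to be read against a background in which 39.1% of all tested genes passed in either direction, with 19.5% lower in miR-21-KD tumours and 19.6% higher. The number lower was 3 when any of VC tumours 1, 2 or 3 or miR-21-KD tumours 1, 3 or 4 was left out, 5 without VC tumour 4 and 6 without miR-21-KD tumour 2. Levels are given in CPM, counts-per-million values with libraries scaled by the TMM factors of edgeR, and a gene was called lower or higher at an adjusted p under 0.05 in the quasi-likelihood test of edgeR. Means are given ± SD over the tumours of a group (n = 4 in each). In bulk tumour RNA, fewer cells expressing a gene and less RNA per cell cannot be told apart.

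The sequences that bear on these members are those of miR-21, of its possible sites in E2f transcripts, and of the promoters of the members that moved most. The mature mouse miR-21 (miR-21a-5p, chr11:86584120-86584141, minus strand, RefSeq on GRCm38.p6) is shown with its seed, bases 2 to 8, in capitals.
mmu-miR-21a-5p: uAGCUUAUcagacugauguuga
The longest annotated 3′ untranslated region of each of the 8 genes was searched for the complement of the seed. E2f2 held 1 site matching the whole seed and followed by A (an 8mer), and E2f3 held 1 site matching bases 2 to 7 and followed by A (a 7mer-A1). The other 6 members held no site of 7 or 8 bases, although E2f6 held 1 and E2f7 held 2 matches of the core TAAGCT alone. Such sites are common, since 11.1% of 21007 genes held at least 1 site of 7 or 8 bases and 23.4% held the core. The sites of E2f2 (chr4:136194693-136194718, plus strand) and E2f3 (chr13:29909343-29909368, minus strand) are printed with the matching bases in capitals.
E2f2 site: ggaactgcatagATAAGCTAccaaaa
E2f3 site: tcataattcagtgTAAGCTAtgggcc
The members that hold these sites, E2f2 and E2f3, were the pair whose fold changes were closest to 0. They also had the longest 3′ untranslated regions of the family, at 3020 and 3328 bases, against a median of 961 bases over all genes. The share of 11.1% is not matched for length, and a relation between sites and fold changes was not tested. A site is a match of letters and is no measurement of binding.

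RefSeq promoter windows were at hand for 6 of the 8 members, not for E2f4 and E2f5. Each window ran from 250 bases before to 50 bases after an annotated start. Both strands were searched for the E2F motif (TTTCCCGC, TTTCGCGC, TTTGCCGC or TTTGGCGC), for the CHR element (TTTGAA) that recruits the MuvB complex to genes of late cell cycle, and for CCAAT, the box bound by NF-Y. These letters occur in 2.26%, 17.9% and 37.4% of all 32851 windows. The 250 bases before the start are printed for E2f7 and E2f8, which moved together, and for E2f3, which was not called, with every match in capitals.
E2f7 (chr10:110745189-110745438, plus strand): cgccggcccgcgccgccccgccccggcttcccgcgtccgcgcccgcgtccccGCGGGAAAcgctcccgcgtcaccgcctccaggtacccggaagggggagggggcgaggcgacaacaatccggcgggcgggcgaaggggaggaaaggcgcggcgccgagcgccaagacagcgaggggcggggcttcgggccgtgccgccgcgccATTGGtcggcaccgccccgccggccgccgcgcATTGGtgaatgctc
E2f8 (chr7:48881597-48881846, minus strand): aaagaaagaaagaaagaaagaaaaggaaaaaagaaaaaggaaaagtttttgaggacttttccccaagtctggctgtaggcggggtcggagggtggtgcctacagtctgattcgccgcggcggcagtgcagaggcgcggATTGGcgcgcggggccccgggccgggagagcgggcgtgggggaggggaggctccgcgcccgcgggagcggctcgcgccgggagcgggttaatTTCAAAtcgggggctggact
E2f3 (chr13:29986064-29986313, minus strand): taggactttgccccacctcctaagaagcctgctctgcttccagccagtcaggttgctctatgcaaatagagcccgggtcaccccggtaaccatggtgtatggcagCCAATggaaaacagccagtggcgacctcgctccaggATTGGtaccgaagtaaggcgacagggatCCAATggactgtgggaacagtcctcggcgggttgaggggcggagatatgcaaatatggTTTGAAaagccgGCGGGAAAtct
E2f7 held 1 E2F motif and 2 CCAAT boxes, and E2f8 held 1 CHR element and 1 CCAAT box but no exact E2F motif. E2f3 held each kind of element in its first window and none in its second. E2f2 held 1 E2F motif 40 bases after the start and 1 CCAAT box before it, and its second window held 1 CHR element and 3 CCAAT boxes. The windows of E2f1 and E2f6 held none. Those of E2f1 and E2f8 and the second windows of E2f2 and E2f3 lay downstream of the outermost annotated start of the gene. The start used for E2f6 also lay inside the gene. An empty window thus does not show that the promoter lacks these elements. The members with windows and not called, E2f2 and E2f3, held elements, as did E2f7 and E2f8, which were called lower. E2f1 and E2f6, also called lower, held none in the windows searched. A relation between elements and calls was not tested and cannot be read from windows of 6 members. In the gene lists compared below, the E2F motif was present in 44.1% of 34 windows of G1/S target genes and 4.76% of 21 windows of G2/M genes, and the CHR element in 14.7% and 76.2%.

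Each tumour had 12134849 to 13592695 reads assigned to genes. The counts of the members ranged from 92 (E2f7 in miR-21-KD tumour 1) to 1518 (E2f8 in VC tumour 3). A miR-21-KD tumour, replicate 2, had the highest level of its group in 6 of the 8 members. In E2f7 and E2f8 it lay far from the other miR-21-KD tumours. VC tumour 4 was the lowest of its group for E2f3, E2f5, E2f7 and E2f8 and the highest for E2f2 and E2f4. For the E2f members, calls that change without either tumour are given with and without it. The plot of the family by tumour shows all values.

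**Figure D1:**
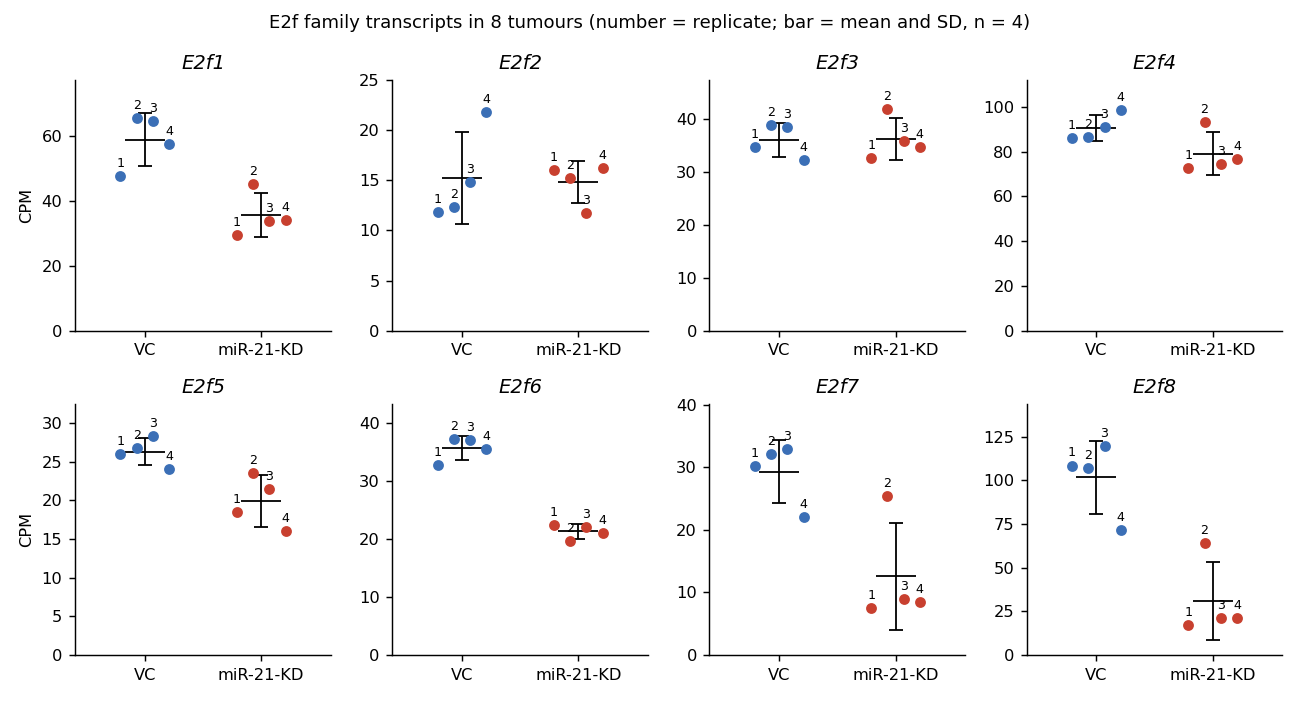
Level of each E2f gene in CPM (vertical axes, each starting at 0) in the 4 VC (blue) and 4 miR-21-KD tumours (red), with the replicate number at each point and the mean and SD of each group as bars. The groups do not overlap for E2f1, E2f5, E2f6 and E2f8. In E2f7, miR-21-KD tumour 2 lies at 25.4 CPM, inside the VC range of 21.99 to 32.86 CPM.

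E2f1, the founding activator of the family and itself an E2F target, lies at chr2:154559400-154569892 on the minus strand (GRCm38.p6, as for the other members). It was at 47.6, 65.4, 64.5 and 57.5 CPM in VC tumours 1 to 4 and at 29.3, 45.1, 33.7 and 34.0 CPM in miR-21-KD tumours 1 to 4. All 4 miR-21-KD tumours were below all 4 VC tumours, the nearest pair being miR-21-KD tumour 2 and VC tumour 1. Non-overlap of this kind, lower in miR-21-KD, was found in 18.9% of tested genes, and the reverse in 16.3%. The mean fell from 58.8 ± 8.23 to 35.5 ± 6.74 CPM, and the log2 fold change was -0.73 with a standard error of 0.15 (edgeR, adjusted p = 0.0105). Without miR-21-KD tumour 2 it was -0.87 (adjusted p = 0.00237), and the call held whichever tumour was left out.

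E2f2 and E2f3, the other activators, did not differ beyond the spread between tumours. E2f2 (chr4:136172274-136196057, plus strand) was at 11.9, 12.4, 14.8 and 21.8 CPM in VC against 16.1, 15.2, 11.8 and 16.2 CPM in miR-21-KD tumours. Its log2 fold change was -0.04 (95% interval -0.52 to 0.45, adjusted p = 0.904 from edgeR), so the data allow any change within this interval. VC tumour 4 held the highest E2f2 level, and without it the fold change was 0.18 (adjusted p = 0.393). The same tumour had the highest summed level of 4 B cell marker genes, at 141 CPM against a lowest VC value of 1.76 CPM. The part of B cells in the E2f2 level was not tested.

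E2f3 (chr13:29906575-29986064, minus strand) was the steadiest of the activators, at 34.7, 38.9, 38.5 and 32.2 CPM in VC against 32.6, 41.8, 35.8 and 34.8 CPM in miR-21-KD tumours. The range of the miR-21-KD tumours covered nearly the same values as that of the VC tumours. The log2 fold change was 0.01 with a 95% interval of -0.24 to 0.25 (adjusted p = 0.961 from edgeR). The activators thus differed in their response as single genes, with E2f1 called and E2f2 and E2f3 not, but the difference between the members was not tested.

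E2f4, the most abundant member per length of transcript and a partner of all pocket proteins in resting cells, lies at chr8:105297663-105305370 on the plus strand. It was at 86.1, 86.6, 90.9 and 98.7 CPM in VC against 72.6, 93.4, 74.3 and 76.6 CPM in miR-21-KD tumours. Of the miR-21-KD tumours, 3 lay below every VC tumour and replicate 2 lay within the VC range. The log2 fold change was -0.19 (95% interval -0.42 to 0.03, adjusted p = 0.145 from edgeR). Without miR-21-KD tumour 2 it was -0.29 and passed the threshold (adjusted p = 0.0179), so the absence of a call rests on that tumour.

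E2f5, the closest relative of E2f4 in the family, lies at chr3:14578602-14606309 on the plus strand. It was at 26.0, 26.8, 28.4 and 24.1 CPM in VC against 18.5, 23.6, 21.5 and 16.1 CPM in miR-21-KD tumours. The groups did not overlap, although miR-21-KD tumour 2 lay close to VC tumour 4. The log2 fold change was -0.40 with a standard error of 0.13 (edgeR, adjusted p = 0.0428). The call did not hold in 6 of the 8 fits that left out a tumour, with adjusted p of 0.0728, 0.0951 and 0.111 without VC tumours 1, 2 and 3 and of 0.0974, 0.0664 and 0.0972 without miR-21-KD tumours 1, 3 and 4. Exons of E2f5 overlap those of 1810022K09Rik on the other strand, which was not a named row of the table, and whether reads were counted by strand is not given in the sources used here.

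E2f6, which lacks the domain that binds pocket proteins and represses through a polycomb complex, had the smallest adjusted p of the family. It lies at chr12:16810909-16826752 on the plus strand. It was at 32.8, 37.3, 37.0 and 35.6 CPM in VC against 22.4, 19.7, 22.1 and 21.1 CPM in miR-21-KD tumours. The groups were separated by more than the whole range of either, and the spread within each was the smallest relative to the mean among the members called. The log2 fold change was -0.74 with a standard error of 0.09 (edgeR, adjusted p = 0.00501), and the call held whichever tumour was left out. E2f6 was also the called member in which miR-21-KD tumour 2 was the lowest tumour rather than the highest.

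E2f7 and E2f8 encode the atypical members, which carry a pair of DNA-binding domains and are themselves transcribed in S phase. E2f7 (chr10:110745439-110787384, plus strand) was at 30.2, 32.2, 32.9 and 21.99 CPM in VC tumours and at 7.44, 25.4, 8.93 and 8.53 CPM in miR-21-KD tumours. Replicates 1, 3 and 4 of miR-21-KD lay far below every VC tumour, and replicate 2 lay among them. The log2 fold change was -1.22 with a standard error of 0.39 (edgeR, adjusted p = 0.0370). Without miR-21-KD tumour 2 it was -1.82 (adjusted p = 0.000905). The call was lost when any of 6 other tumours was left out, with adjusted p of 0.0657, 0.0819 and 0.0873 without VC tumours 1, 2 and 3 and of 0.0843, 0.0925 and 0.0955 without miR-21-KD tumours 1, 3 and 4. The gene 1700020G17Rik, whose exons overlap those of E2f7 on the other strand, had 0 counts in every tumour, which allows up to 0.247 CPM.

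E2f8 (chr7:48866429-48882073, minus strand) had the largest fold change of the family. It was at 108, 107, 119.6 and 71.6 CPM in VC against 17.1, 63.9, 21.2 and 21.1 CPM in miR-21-KD tumours. The groups did not overlap, and the gap between them was the one between miR-21-KD tumour 2 and VC tumour 4. The mean fell from 102 ± 20.8 to 30.8 ± 22.1 CPM, and the log2 fold change was -1.72 with a standard error of 0.41 (edgeR, adjusted p = 0.0151). Without miR-21-KD tumour 2 it was -2.37 (adjusted p = 0.000879), and the call held whichever tumour was left out. Exons of E2f8 overlap those of Gm2788 on the other strand, which was not a named row of the table.

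Levels of different members can be compared only per length of transcript. Divided by the length of all annotated exons, the VC order was E2f4 (37.0 ± 2.38 CPM per kb), E2f8 (18.7 ± 3.83), E2f1 (18.6 ± 2.61), E2f5 (14.8 ± 0.996), E2f3 (6.64 ± 0.586), E2f6 (6.30 ± 0.361), E2f7 (3.25 ± 0.555) and E2f2 (3.12 ± 0.940). E2f8, E2f1 and E2f5 had overlapping ranges among the VC tumours, as had E2f3 and E2f6, and E2f7 and E2f2. In miR-21-KD tumours E2f4 was again the highest at 32.3 ± 3.91 CPM per kb, while E2f8 was at 5.66 ± 4.07 and E2f7 the lowest at 1.40 ± 0.951. E2f1 (11.3 ± 2.14) and E2f5 (11.2 ± 1.86) followed E2f4 and did not differ beyond their spread. With the length of the longest transcript, E2f6 (11.8 ± 0.678 CPM per kb) came before E2f3 (7.07 ± 0.624) in VC tumours.

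The summed length-scaled level of the family was 103 to 116 CPM per kb in VC and 66.5 to 94.5 CPM per kb in miR-21-KD tumours, with replicate 2 at 94.5. The share held by the atypical pair was 14.9% to 22.7% in VC tumours, the lowest being tumour 4, and 5.97%, 15.4%, 6.89% and 6.95% in miR-21-KD tumours. It was lower in replicates 1, 3 and 4 of miR-21-KD than in any VC tumour, while replicate 2 lay just above VC tumour 4. The activators together held 23.3% to 27.5% of the sum in VC and 26.6% to 29.6% in miR-21-KD tumours, ranges that overlap through replicate 2 at 26.6%. E2f4, E2f5 and E2f6 together held 51.4% to 57.6% and 58.0% to 66.1%. Within the family the transcript pool of miR-21-KD tumours other than replicate 2 thus held a smaller share of E2f7 and E2f8 than any VC tumour and larger shares of both other groups, the activators being at 27.8% to 29.6% in these tumours.

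**Figure D2:**
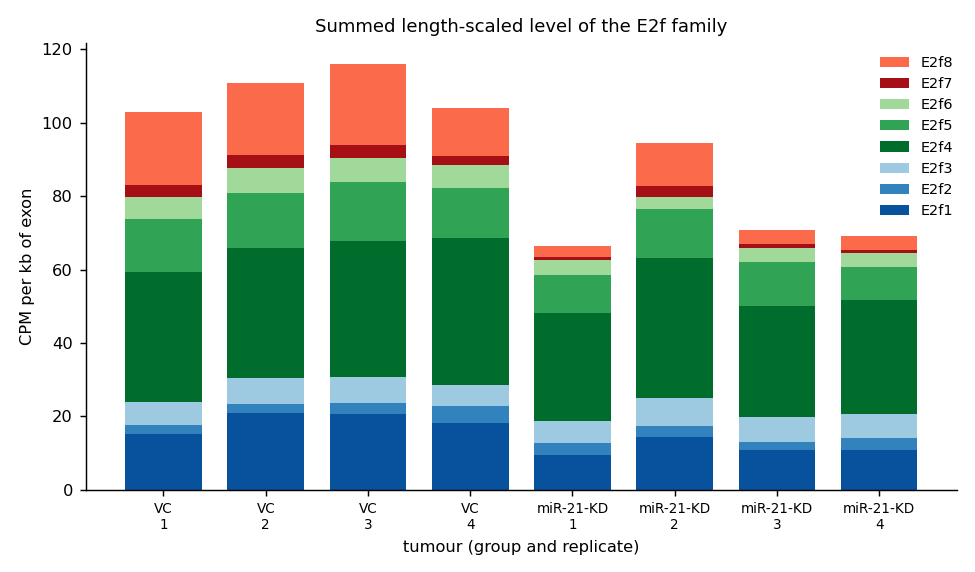
Summed level of the 8 E2f genes in CPM per kb of exon (vertical axis) in each tumour, stacked by gene with activators in blue, E2f4 to E2f6 in green and the atypical members in red. The sum is 103 to 116 in VC tumours and 66.5 to 70.8 in miR-21-KD tumours 1, 3 and 4, with 94.5 in replicate 2.

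After removal of the group means, E2f7 and E2f8 followed each other across the 8 tumours with a Pearson correlation of 0.996. The other correlations with E2f8 were 0.889 for E2f3, 0.740 for E2f1, 0.733 for E2f5, 0.674 for E2f4, -0.231 for E2f2 and -0.590 for E2f6. These values describe 8 tumours of which miR-21-KD tumour 2 and VC tumour 4 carry much of the spread, and all members share the libraries. Among 10662 well expressed genes, the gene whose pattern was most like that of E2f8 was E2f7, followed by the mitotic kinesin Kif11 (0.995). Among the genes most like E2f7 was Hirip3 (0.997), and E2f1 was most like the helicase Dhx37 (0.993) and the splicing factor Prpf19 (0.989). E2f2 was most like Irf8, a transcription factor of myeloid and B cells (0.996), and Atat1, an acetyltransferase of tubulin (0.981). The leading pairs were Hsf2 (0.987) and Nfic (0.984) for E2f3, Hpf1 (0.990) and Rad9a (0.989) for E2f4, Ppp4r1 (0.991) and S100pbp (0.980) for E2f5, and Lmf1 (0.974) and Zgpat (0.966) for E2f6. With 8 values and this many genes high correlations arise for any gene, and no test was made.

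**Figure D3:**
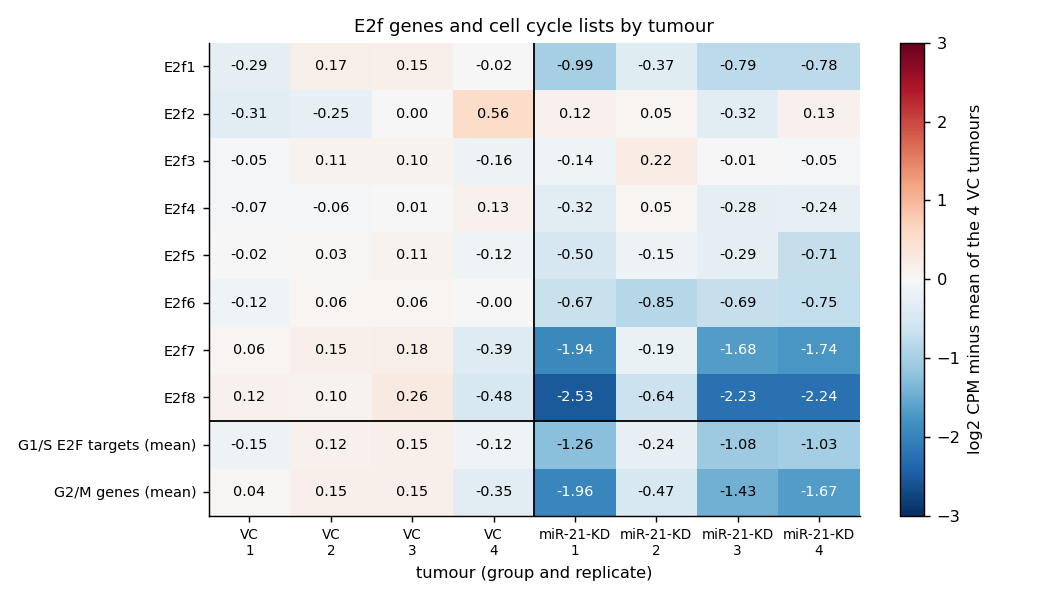
Difference in log2 CPM from the mean of the 4 VC tumours (colour, number in each cell) for the 8 E2f genes and for the means over 38 G1/S target genes and 24 G2/M genes, by tumour. E2f8 was at -2.53, -2.23 and -2.24 in miR-21-KD tumours 1, 3 and 4 and at -0.64 in replicate 2, and both list means were likewise lowest in miR-21-KD tumour 1.

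The typical E2F proteins bind DNA only as dimers with a DP protein, and the genes of both DP proteins were measured. Tfdp1 was at 68.6 ± 7.43 CPM in VC against 58.5 ± 11.0 CPM in miR-21-KD tumours (log2 fold change -0.23, adjusted p = 0.214 from edgeR). Tfdp2 was at 23.4 ± 2.50 and 22.1 ± 3.04 CPM, with a log2 fold change of -0.09 (adjusted p = 0.618). Of both genes, 0 were called by edgeR, 0 had an unadjusted p under 0.05, and DESeq2 and limma-voom called 0. Without miR-21-KD tumour 2, Tfdp1 was lower by the test (-0.38, adjusted p = 0.0194).

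Of the 3 pocket protein genes, 1 was higher in miR-21-KD tumours and 0 lower by edgeR, with 1 lower at an unadjusted p under 0.05. With 3 genes, 1 call is near the 19.6% higher over all tested genes. Rbl2, which encodes the p130 of resting cells and of the DREAM repressor complex, was at 43.7, 33.6, 33.5 and 39.3 CPM in VC against 79.7, 53.8, 53.0 and 58.9 CPM in miR-21-KD tumours. Every miR-21-KD tumour was above every VC tumour, replicate 2 included. The log2 fold change was 0.71 with a standard error of 0.15 (edgeR, adjusted p = 0.0115), and the call held whichever tumour was left out. Rbl1, which encodes p107 and is itself an E2F target, was at 56.7 ± 4.99 and 39.8 ± 12.3 CPM, and its log2 fold change of -0.51 did not pass (adjusted p = 0.0622). In the fit with a replicate block it passed (-0.55, adjusted p = 0.0280), as it did without a block in DESeq2 (adjusted p = 0.0414) and limma-voom (adjusted p = 0.0392), and without miR-21-KD tumour 2 (-0.75, adjusted p = 0.00211). Rb1, the retinoblastoma gene, was at 54.8 ± 5.48 and 63.0 ± 5.88 CPM (log2 fold change 0.20, adjusted p = 0.145), and passed without miR-21-KD tumour 2 (0.26, adjusted p = 0.0490).

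The MuvB core binds p130 with E2F4 in resting cells and B-MYB and FOXM1 in proliferating cells. Of 7 genes, the core subunits Lin9, Lin37, Lin52, Lin54 and Rbbp4 and the partners Mybl2 and Foxm1, 3 were called lower and 0 higher, and the list median of log2 fold changes was -0.36, where all tested genes had a median of -0.01 and 19.5% were lower. By unadjusted p under 0.05 in edgeR, 5 were lower and 0 higher, and DESeq2 called 0 higher. Foxm1, the activator of G2/M genes, was at 101 ± 20.1 CPM in VC against 45.0 ± 25.2 CPM in miR-21-KD tumours (log2 fold change -1.17, adjusted p = 0.0268). Mybl2, the gene of B-MYB, changed by -0.97 (adjusted p = 0.0472) and Lin9, the one core subunit gene called, by -0.76 (adjusted p = 0.0245). In each of these genes miR-21-KD tumour 2 lay within the VC range, and without it 5 genes of the list were lower. The count was 2 without VC tumour 1 and 0 without VC tumours 2 or 3 or miR-21-KD tumours 1, 3 or 4, with the largest adjusted p of Lin9, Foxm1 and Mybl2 at 0.0699, 0.0720 and 0.113. In the fit with a replicate block the histone chaperone gene Rbbp4 passed as well (-0.33, adjusted p = 0.0336), as it did without a block in DESeq2 (-0.32, adjusted p = 0.0452) and without miR-21-KD tumour 2 (-0.41, adjusted p = 0.0184).

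The complex through which E2F6 acts, PRC1.6, was represented by 9 genes with a median log2 fold change of -0.08, of which 1 was lower and 1 higher. By unadjusted p under 0.05 in edgeR, 3 were lower and 2 higher, and DESeq2 called 1 lower and 2 higher. Without VC tumour 4 or miR-21-KD tumour 2, 2 were lower. Mga, the large scaffold that holds the complex to DNA, was at 41.4 ± 5.80 CPM in VC against 73.1 ± 9.02 CPM in miR-21-KD tumours. All 4 miR-21-KD tumours were above all VC tumours, and the log2 fold change was 0.82 with a standard error of 0.13 (edgeR, adjusted p = 0.00571). Rnf2, the ubiquitin ligase of the complex, fell by 0.44 on the log2 scale (adjusted p = 0.0403), a call that held in 2 of the 8 fits without a tumour. It was lost without VC tumours 1, 2 or 3 and without miR-21-KD tumours 1, 3 or 4, with an adjusted p of up to 0.104. With 9 genes, 1 call in each direction is no more than the shares over all tested genes (19.5% lower and 19.6% higher).

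Cyclin-dependent kinases release E2F from the pocket proteins, and their inhibitors prevent it. Of 13 genes, 4 were called lower and 4 higher, with a median log2 fold change of -0.15, to be read against 19.5% lower and 19.6% higher over all tested genes. Without VC tumour 4, 5 were lower and 6 higher. The lower genes were Ccnd1, the gene of cyclin D1 (-1.58, adjusted p = 0.0309 from edgeR), the inhibitor Cdkn2c, itself an E2F target (-1.37, adjusted p = 0.0155), and the kinases Cdk4 (-0.66, adjusted p = 0.0106) and Cdk2 (-0.32, adjusted p = 0.0320). Ccnd1 was at 1575 ± 366 CPM in VC against 526 ± 389 CPM in miR-21-KD tumours, with replicate 2 at 1082 CPM and the others between 184 and 470 CPM. With replicate 2 left out, Ccnd1 was at -2.22 on the log2 scale (adjusted p = 0.00273). The higher genes were the inhibitors Cdkn1c, which encodes p57 (2.51, adjusted p = 0.0171), Cdkn2b, which encodes p15 (1.48, adjusted p = 0.0134), and Cdkn1a, which encodes p21 (0.97, adjusted p = 0.00771), and the cyclin gene Ccnd3 (0.59, adjusted p = 0.0121). Cdkn1a rose from 110.5 ± 26.5 to 216 ± 28.6 CPM, whereas Cdkn1c and Cdkn2b were scarce, at 0.853 ± 0.358 and 1.16 ± 0.314 CPM in VC tumours. Cdkn1c was at 11.07 CPM in miR-21-KD tumour 1 and 1.415 to 3.835 CPM in the others, and its log2 fold change was 1.74 without that tumour, where it still passed. It passed in all fits without a tumour except the one without VC tumour 3 (adjusted p = 0.0527). The calls of Ccnd1 and Cdk2 were lost without VC tumours 2 or 3 or miR-21-KD tumours 3 or 4, and that of Cdk2 also without miR-21-KD tumour 1, with adjusted p of up to 0.0836 and 0.0911.

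**Figure D4:**
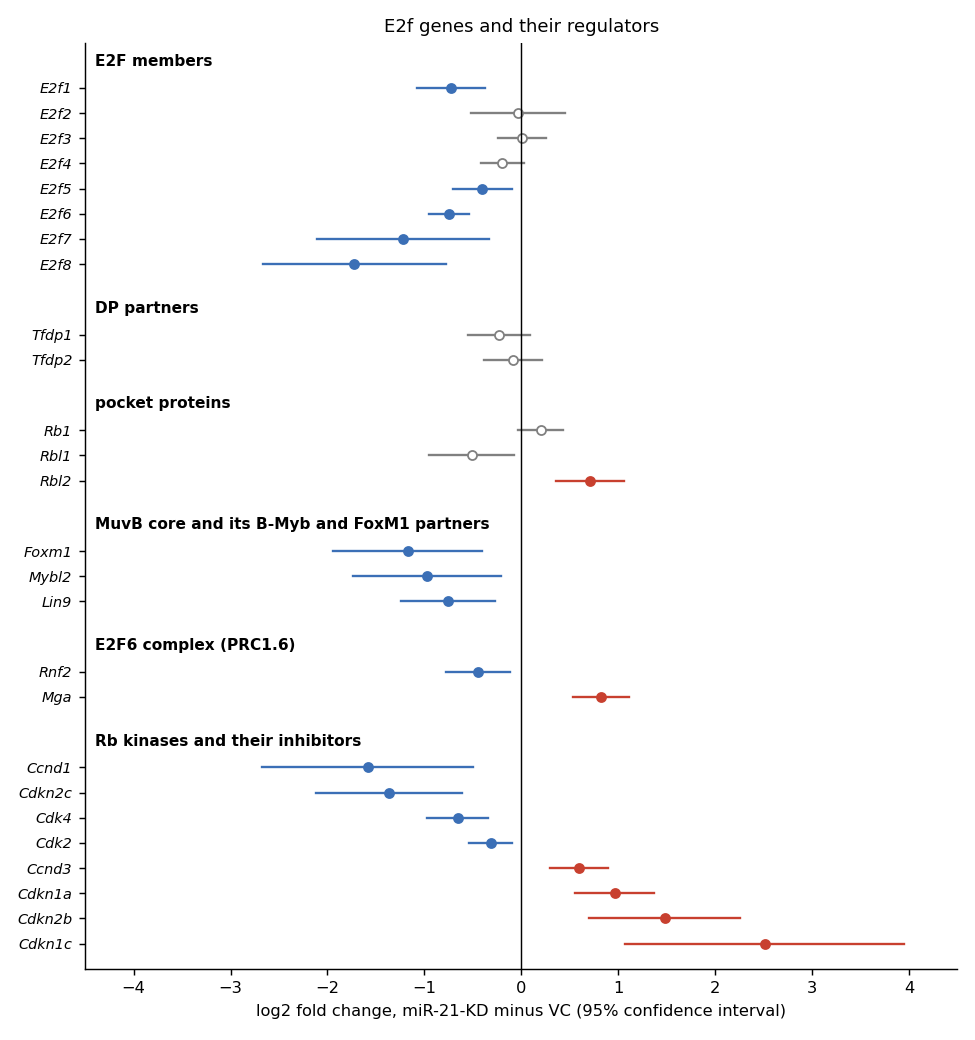
Log2 fold change, miR-21-KD minus VC, with its 95% confidence interval (horizontal axis) for the 8 E2f genes, both DP partners, the 3 pocket protein genes and the called genes of 3 further lists. Blue marks genes lower and red genes higher in miR-21-KD tumours, and open grey circles genes that did not pass. E2f8 lies at -1.72 with an interval of -2.67 to -0.78, and E2f3 at 0.01.

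Genes that E2F proteins are known to control at the G1/S transition were lower in miR-21-KD tumours as a list. Of 38 G1/S target genes, 34 were lower and 0 higher, and the median log2 fold change was -0.81, with values from -1.48 to -0.29, where 19.5% of all tested genes were lower. By unadjusted p under 0.05 in edgeR, 35 were lower and 0 higher, and 0 were higher by DESeq2 or limma-voom. The smallest adjusted p values belonged to Slbp, which encodes the histone mRNA binding protein (log2 fold change -0.56, adjusted p = 0.00750), and Tyms, the gene of thymidylate synthase (-0.93, adjusted p = 0.00777). Mcm7, a subunit of the replicative helicase, followed with -1.02 (adjusted p = 0.00936), and Rrm1, the large subunit of ribonucleotide reductase, with -0.82 (adjusted p = 0.0105). The genes that did not pass were Ezh2, Rrm2, Ccne2 and Ccne1, all with values below 0, and without miR-21-KD tumour 2 all but Ccne1 passed (Rrm2 at -1.39, adjusted p = 0.00350). The list was chosen as E2F targets from general knowledge with earlier results of these data known, so its direction is a description.

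In 37 of the 38 G1/S targets, miR-21-KD tumour 2 had the highest level of its group, and in 17 it was within or above the VC range. The mean log2 CPM over the list was 5.54, 5.81, 5.84 and 5.57 in VC and 4.43, 5.45, 4.61 and 4.66 in miR-21-KD tumours. Replicate 2 was thus nearer to the VC tumours than to its own group, as it was for E2f7 and E2f8. Without it, 37 genes were lower. The number depended on the other tumours too, at 16, 14 and 26 without VC tumours 2, 3 and 4 and at 19, 15 and 15 without miR-21-KD tumours 1, 3 and 4.

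Genes of the G2/M phase, which FOXM1 and B-MYB control with MuvB, were lower by a larger median. Of 24 genes, 23 were lower and 0 higher, with a median log2 fold change of -1.28 and values from -1.60 to -0.86, beside the same 19.5% over all tested genes. By unadjusted p under 0.05 in edgeR, 24 were lower and 0 higher, and 0 were higher by DESeq2 or limma-voom. Aurkb, the kinase of the chromosomal passenger complex, was at 61.6, 79.5, 78.1 and 60.7 CPM in VC against 19.7, 44.4, 24.9 and 22.9 CPM in miR-21-KD tumours (log2 fold change -1.32, adjusted p = 0.00790). Ccnb2, a mitotic cyclin, changed by -1.33 (adjusted p = 0.00876), Birc5, which encodes survivin, by -1.38 (adjusted p = 0.00988), and the kinesin gene Kif23 by -1.28 (adjusted p = 0.0104). In all 24 genes miR-21-KD tumour 2 was the highest of its group. Without VC tumours 1 to 4 in turn, 20, 18, 16 and 23 genes were lower. For miR-21-KD tumours 1 to 4 these counts were 19, 24, 16 and 16. Bub1, a checkpoint kinase gene, did not pass (-0.87, adjusted p = 0.0754), but it did in edgeR with a replicate block (adjusted p = 0.0311), in limma-voom (adjusted p = 0.0336) and DESeq2 (adjusted p = 0.0385) without one, and without miR-21-KD tumour 2 (-1.34, adjusted p = 0.00295). The difference in median between the lists was not tested.

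**Figure D5:**
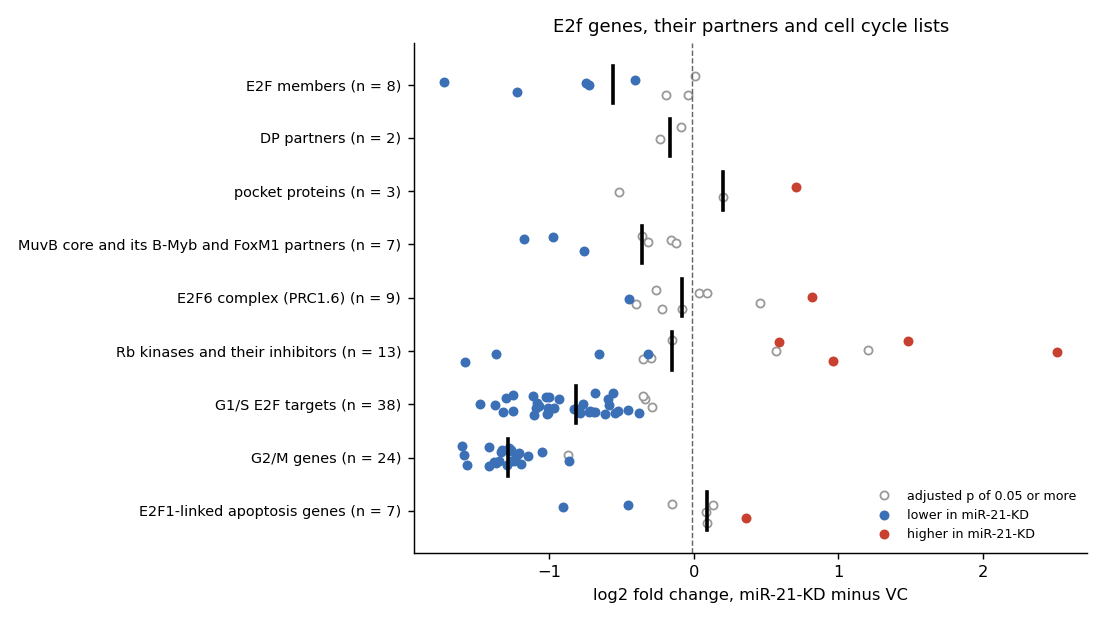
Log2 fold change of each tested gene (points) in the E2f family and in 8 lists of partners, regulators and targets, with the list median as a black bar and the median of all 14382 tested genes, -0.01, as a dashed line. Blue points are lower and red points higher in miR-21-KD tumours, and open circles did not pass. The points of the G1/S and G2/M lists lie below 0 throughout, and those of the kinases and inhibitors on both sides.

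E2F1 is also known to induce genes of apoptosis, and 8 of these were listed, of which Trp73 fell below the count filter. Among the other 7 genes, 2 were lower and 1 higher, and the median log2 fold change was 0.09. Bcl2l11, which encodes the death inducer BIM, changed by -0.46 on the log2 scale (edgeR, adjusted p = 0.0203), and Apaf1, the scaffold of the apoptosome, by 0.36 (adjusted p = 0.0190). The call of Apaf1 was lost without VC tumours 2 or 3 (adjusted p of up to 0.0632), and that of Bcl2l11 without VC tumour 2 or miR-21-KD tumours 3 or 4 (up to 0.0562). With so few genes, these counts are near the shares over all tested genes (19.5% lower and 19.6% higher).

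Markers of other cell types moved with the groups as well, and their counts are to be read against the 19.6% of all tested genes called higher. The summed level of 7 macrophage genes was 2640 to 3870 CPM in VC and 5370 to 8400 CPM in miR-21-KD tumours, and all 7 were called higher. Fibroblast genes (4 of 6 higher) were at 1650 to 3840 and 5600 to 11900 CPM, adipocyte genes (4 of 4 higher) at 84.1 to 315 and 416 to 1100 CPM, and T cell genes (5 of 7 higher) at 42.4 to 157 and 135 to 277 CPM. Endothelial genes (1 of 5 higher, near that share) overlapped at 353 to 629 and 515 to 735 CPM, and 0 of 4 B cell and 0 of 4 tested neutrophil genes were called by edgeR, with 0 and 2 higher at an unadjusted p under 0.05. Epithelial genes were present in every tumour, at 1300 to 2250 and 903 to 1660 CPM, with Krt18 lower and Krt14, Krt5, Krt7, Epcam and Cdh1 higher. In miR-21-KD tumour 2, where E2f7 and E2f8 were closest to VC, the macrophage (5370), fibroblast (5600) and adipocyte (416) sums were the lowest of its group, as was the neutrophil sum (338). Its T cell (210), B cell (9.12) and endothelial (528) sums were not the lowest. The part of these cell types in the E2f results was not tested.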

How the data were processed

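Whole tumours, 4 VC and 4 miR-21-KD, were profiled by RNA sequencing of total RNA. The table that the authors deposited holds raw counts, not normalized, for each gene (Entrez identifier) and tumour. The processing notes of the submitters name Subread, featureCounts, edgeR and limma and the build mm10, without versions. The annotation and the strand setting are not given in the sources used here. Totals were 12134849 to 13592695 counts per tumour. A count of 0 allows up to 3 counts, 0.221 to 0.247 CPM, which covers counting error only.

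Symbols from the GRCm38.p6 annotation matched 25275 of 27179 identifiers. Genes were kept by filterByExpr (a minimum count of 10 and a minimum total of 15). The 14382 genes kept, which held 99.852% of the reads counted, were tested in R 4.3.3 with the robust quasi-likelihood test of edgeR 4.0.16 after TMM scaling, without a block, with Benjamini-Hochberg adjustment over all genes tested and a threshold of 0.05. CPM per kb used exon lengths of GENCODE M21, and log2 CPM a prior count of 2. The members, gene lists and tests were chosen with earlier results of these data known. The rule named all E2f, DP and pocket protein genes, called genes of the MuvB, PRC1.6, kinase and apoptosis lists, the 4 smallest adjusted p in the G1/S and G2/M lists, and for each member the 2 genes averaging at least 3 log2 CPM with the highest correlation. Ezh2, Rrm2, Ccne2, Ccne1, Rbbp4, Lin37, Lin52, Lin54, Bub1, the genes that changed sign without a tumour and the marker genes were named after their values were seen. A few single-gene results that the rule would name are not reported here. Promoter and miRNA sequences are from RefSeq (GRCm38.p6).

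Tumours carry replicate numbers 1 to 4 in both groups. After removal of group means, tumours of the same number correlated at 0.272, 0.421, 0.175 and 0.376. The mean of -0.105 for other combinations is no separate baseline, because removing group means ties it to the same-number values. The numbers may therefore pair the tumours, but no source used here states a pairing. The main tests were made without a block, and the replicate block is given as an alternative. P-values measure the spread between these tumours. The alternatives were DESeq2 1.42.0, limma-voom of limma 3.58.1 with and without quality weights, scaling by library size alone or by the upper quartile, no filter, a stricter filter of 10 counts in every tumour, a replicate block, and each tumour left out in turn. The fits were also tested on simulated counts.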

Additional observations from a re-analysis of the deposited data

Results flagged for a closer look

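In 20 groups of 4 tumours checked (both groups for each member and for the means of the G1/S and G2/M lists), 2 held a tumour far from the other three by Dixon's test, in which chance flags about 1 in 20 groups. Both were miR-21-KD tumour 2. Its E2f7 level of 25.4 CPM stood above the next tumour of the group at 8.93 CPM, a gap of 0.917 of the range of the group, above the critical value for 4 tumours. Its E2f8 level of 63.9 CPM stood above the next at 21.2 CPM, a gap of 0.913 of the range. These are readings of the same tumour in a pair of genes that follow each other, so they are not independent. The cause was not tested.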

How the results depend on the processing

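E2f1, E2f6 and E2f8 were called lower in every fit made, with adjusted p of 0.000302 to 0.0367, 1.82e-10 to 0.0224 and 0.000206 to 0.0459. The number of E2f members lower was 5 with DESeq2, library size alone, upper-quartile scaling, limma-voom and the replicate block, 4 with the filter of 10 counts in every tumour and 6 with quality weights, but 3 with no filter on low counts. There E2f5 (-0.43, adjusted p = 0.0524) and E2f7 (-1.24, adjusted p = 0.0506) did not pass. With the filter of 10 counts in every tumour E2f5 did not pass either (-0.35, adjusted p = 0.0578), and with quality weights E2f4 did (-0.23, adjusted p = 0.0238). Leaving out 1 tumour gave 3 to 6 members and 14 to 37 G1/S genes lower, with the upper ends without miR-21-KD tumour 2, and log2 fold changes of -0.29 to -0.15 for E2f4, -0.50 to -0.31 for E2f5 and -1.82 to -1.03 for E2f7. The cause of these changes was not tested. Around 0, E2f2 turned to 0.01 with upper-quartile scaling and with 10 counts in every tumour, to 0.00 with limma-voom and to between -0.14 and 0.18 without 1 tumour. E2f3 turned to -0.02 with library size alone and with no filter, to -0.07 with quality weights and to between -0.07 and 0.06 without 1 tumour. Among other listed genes, L3mbtl2 (-0.02 to 0.11), Bbc3 (-0.05 to 0.20) and Pmaip1 (-0.03 to 0.39) changed sign without 1 tumour. Of 1646 combinations of the 103 other genes with an alternative, 1413 kept direction and call, 189 lost the call, 40 gained it and 4 changed sign. In edgeR with the replicate block E2f7 was at -1.39 (adjusted p = 0.0137) and E2f8 at -1.91 (adjusted p = 0.00768), and in limma-voom without it at -1.40 and -1.91. Against edgeR without the block, the block added the calls of Rbl1, Rbbp4 and Bub1, all of which DESeq2 without it called too, and limma-voom without it Rbl1 and Bub1, and changed no other call in the lists.

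With 4 tumours a group, the intervals allow log2 changes of up to 0.52 in E2f2 and 0.25 in E2f3. The standard errors did not follow the read numbers, being largest for E2f8 (0.41) and E2f7 (0.39) and smaller for the scarcer E2f2 (0.21). The pooled clones, the regression of miR-21-KD tumours and their cell make-up go with the groups and cannot be told apart from the loss of miR-21 activity in these data.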
